A study of Mus musculus with 24 samples.

Results

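The set described here is the 2-cell profile of m6A peaks in mouse preimplantation development: peaks and genes listed in both 2-cell libraries and in none of the other 10, and the reverse, those missing from both 2-cell libraries and listed in 8 or more of the other 10. Overlapping peaks (1 bp or more) of the 12 peak lists were joined into 31376 regions. Of these, 1250 regions (3.98%) were in both 2-cell lists and no other, and 369 regions (1.18%) were missing from both 2-cell lists and present in 8 or more others. Of 9903 protein-coding genes whose body held a peak in any list, 129 (1.3%) were 2-cell-only and 329 (3.32%) were 2-cell-absent. Membership is a list of presences and absences that the rule itself sets, so these counts are a description without a test.

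The series profiled RNA m6A by antibody pull-down from small pools (picoMeRIP-seq) of C57BL/6N oocytes and embryos from 8-week-old superovulated females, mated with 8-week-old males for the embryos. Each stage had 2 biological replicates, and each library came from 1 pool, so no value belongs to a single embryo. The 2-cell libraries came from 100 embryos each, flushed 39 to 43 h after human chorionic gonadotropin (hCG). The other 10 libraries were germinal vesicle (GV) oocytes of the surrounded-nucleolus type (49 each), oocytes at metaphase II (MII; 100 and 110, at 14 h), zygotes (100 each, at 27 to 28 h), 8-cell embryos (100 and 51, at 68 to 70 h) and blastocysts (100 each, at 92 to 94 h). GV oocytes were taken after a first gonadotropin alone, without hCG. The matched input libraries were not analysed here, and a peak list does not give RNA level. A gene without a peak may lack the mark or lack the RNA, and these cannot be told apart. Neither exons nor the strand of a peak were used. A peak inside a gene body therefore need not lie in the RNA of that gene. Fold enrichments are the authors' values for single peaks; where those of several lists are set side by side they describe each list and show no change between lists.

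N6-methyladenosine is the most abundant internal modification of messenger RNA; a writer complex places it in a short sequence context, and reader proteins link it to splicing, export, translation and decay. In the mouse the 2-cell embryo is the stage of the major wave of zygotic genome activation, when maternal RNA is degraded and a short-lived program of transcription starts, with transcripts of the Zscan4 cluster, of families of tandem gene copies and of retroelements. Oocytes and zygotes carry RNA laid down by the mother, while 8-cell embryos and blastocysts run on their own transcripts.

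The 2-cell lists held 9161 and 9552 peaks, within the range of the other 10 lists (6914 to 11959). The read depth behind the lists is unknown. The label was checked on marker genes. Of 7 2-cell marker genes in the gene table, 5 and 4 had a peak in the 2-cell libraries, against 0 to 4 in the others. Zscan4d, Zfp352, Tdpoz4 and Ubtfl1 had one in both 2-cell libraries. The 8-cell libraries had 3 and 4, so these markers do not separate 2-cell replicate 2 from 8-cell replicate 2. Of 8 oocyte markers, 1 and 0 had a peak in the 2-cell libraries, against 0 to 4 in the others. None of 12 cumulus or granulosa cell markers had a peak in either 2-cell library, and 0 to 2 had one in the others. None of 5 trophectoderm markers had a 2-cell peak, against 0 to 2 in the others. Of 4 primitive endoderm markers, 1 (Gata4) had a peak in both 2-cell libraries, against 0 to 3 in the others.

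The sequences below are the start-site windows of genes that were 2-cell-only and whose 2-cell-only region reached into the window, 3 of 5 such genes; the 2 histone genes belong to the run of neighbouring genes described further on, and B020004C17Rik lies in a dense group of regions. Each window runs from 250 bases before to 50 bases after the RefSeq start of the gene (GRCm38.p6), is written 5′ to 3′ on the gene's strand, and has in capitals the bases that lie inside the 2-cell-only region.
H2bc14, chr13:21721794-21722093, plus strand: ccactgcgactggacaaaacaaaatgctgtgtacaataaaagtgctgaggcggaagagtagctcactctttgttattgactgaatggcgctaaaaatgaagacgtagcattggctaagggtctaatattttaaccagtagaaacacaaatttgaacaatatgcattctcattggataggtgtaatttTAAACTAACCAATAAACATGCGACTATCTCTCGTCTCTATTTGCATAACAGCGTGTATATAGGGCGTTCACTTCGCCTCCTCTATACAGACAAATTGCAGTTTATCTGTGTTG
H2ac24, chr13:21833426-21833725, minus strand: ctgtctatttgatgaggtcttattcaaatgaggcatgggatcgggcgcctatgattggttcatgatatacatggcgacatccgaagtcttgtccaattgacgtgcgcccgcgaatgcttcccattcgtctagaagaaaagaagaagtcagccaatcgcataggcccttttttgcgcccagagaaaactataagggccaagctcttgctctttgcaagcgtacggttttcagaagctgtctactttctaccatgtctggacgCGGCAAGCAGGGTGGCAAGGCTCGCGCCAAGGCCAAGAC
B020004C17Rik, chr14:57014884-57015183, plus strand: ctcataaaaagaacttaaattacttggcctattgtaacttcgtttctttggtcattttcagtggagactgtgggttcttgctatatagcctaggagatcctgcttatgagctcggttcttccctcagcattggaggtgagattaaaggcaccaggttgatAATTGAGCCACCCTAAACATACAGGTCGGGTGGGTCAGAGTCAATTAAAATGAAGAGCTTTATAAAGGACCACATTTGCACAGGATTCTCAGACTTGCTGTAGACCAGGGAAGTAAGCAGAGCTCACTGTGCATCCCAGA
In H2bc14, which encodes histone H2B, the last 113 bases of the window lay in the region; in H2ac24, a histone H2A gene, it was the last 39, and in B020004C17Rik the last 140. The letters GGAC, the core of the context in which m6A is placed, were searched on both strands. They occur once on the gene's strand in each of the 3 windows, inside the region in B020004C17Rik and outside it in the 2 histone genes. In the other 2 such genes, Snrnp25 and LOC115487996, whose windows are not printed, it also occurs once on the gene's strand, inside the region. Each of these matches inside a region lies among the 250 bases before the RefSeq start. They are thus outside the transcript annotated from that start. Of all 32851 RefSeq windows, 65.6% hold GGAC on the gene's strand and 66.1% on the other strand, so such a match is common. Start-site windows were touched by 20 of the 1250 2-cell-only regions (1.6%), against 3.23% of all regions, and by the regions of 5 of the 109 2-cell-only genes that have a window in the table.

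The 2-cell-only regions lay mostly between genes. By the midpoint, 723 of the 1250 (57.8%) were intergenic, 165 (13.2%) lay in a non-coding gene or pseudogene only, and 362 (29.0%) in a protein-coding gene. Over all 31376 regions, 21.0% were intergenic and 71.7% lay in a protein-coding gene. Regions that both 2-cell libraries shared with at least 1 other library had the makeup of the whole, with 22.7% intergenic among 4246. The same rule applied to each other stage gave 1055 GV-only, 192 MII-only, 111 zygote-only, 524 8-cell-only and 413 blastocyst-only regions, of which 22.7%, 10.9%, 27.9%, 17.2% and 7.99% were intergenic. With every list cut to its 6914 strongest peaks, 55.3% of 984 2-cell-only regions were intergenic, against 5.26% to 27.7% in the other stages.

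**Figure D1:**
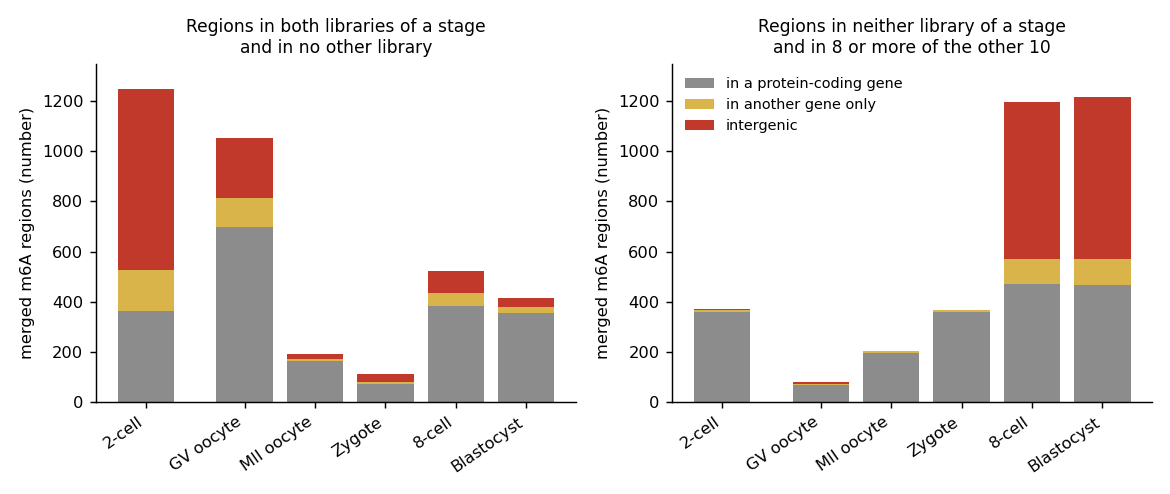
Number of merged m6A regions present in both libraries of a stage and no other (left) and missing from both libraries of a stage but present in 8 or more of the other 10 (right), split by the place of the region's midpoint. The 2-cell bar on the left is the tallest and holds 723 intergenic regions; the 2-cell bar on the right is almost entirely in protein-coding genes.

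Of the 369 2-cell-absent regions, 360 (97.6%) lay in a protein-coding gene, 5 in another gene and 4 between genes. By the same rule the share in protein-coding genes was 87.2% for GV-absent, 95.1% for MII-absent, 97.5% for zygote-absent, 39.4% for 8-cell-absent and 38.2% for blastocyst-absent regions. The rule asks for 8 of the other 10 lists and so for at least 2 lists from the 8-cell and blastocyst stages, which held few intergenic peaks (3.72% to 8.46% of their peaks). The 2-cell-absent regions had a median width of 643 bp, against 353 bp for the 2-cell-only regions and 280 bp for all regions. Regions that both 2-cell libraries shared with another library had a median of 630 bp. A region joins the overlapping peaks of all lists, so one that must be in 8 or more lists can be wider through the rule itself. In the other stages the absent regions had medians of 313.5 bp (GV) to 759 bp (8-cell).

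Over whole lists, 31.4% and 25.8% of the peaks of the 2-cell libraries were intergenic, a mean of 28.6% ± 3.94 (SD, n = 2), against 16.1% ± 8.48 (SD, n = 10) in the other libraries. The difference of 12.5 percentage points did not pass the test (exact permutation test over the 66 choices of 2 of 12 libraries, two-sided, p = 0.106, adjusted p = 0.53 over 5 measures; the smallest p this design allows is 0.0152). This test, like the other exact tests here, treats the 12 libraries as exchangeable, although the 2 replicates of a stage are not independent. Zygote replicate 1, with 27.0%, lay above 2-cell replicate 2, while the 8-cell and blastocyst libraries lay far below both. The other 4 measures did not pass either, with adjusted p from 0.53 to 0.636 in the same exact test. The median peak width was 255 ± 8.49 bp in the 2-cell libraries and 283 ± 37.4 bp in the others. The authors' fold enrichment had a median of 6.02 ± 0.12 in the 2-cell lists and 5.52 ± 0.711 in the others. In genes over 10 kb, 25.4% ± 1.62 of the 2-cell peaks and 28.9% ± 5.78 of the others lay within 2 kb of a gene end (SD, n = 2 and 10 for each).

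Intergenic 2-cell peaks were close to one another. In the 2-cell libraries 56.0% and 56.8% of the intergenic peaks had another intergenic peak of the same list within 10 kb, against 12.5% to 49.5% in the other 10 libraries. Both 2-cell values were above all others, with a mean difference of 18.3 percentage points. The exact two-sided permutation test gave p = 0.0606, and an adjusted p of 0.121 over the 4 measures added after the data had been seen. With only peaks with a score of 202 or more, the median of all lists, the mean difference was 6.67 points (exact permutation p = 0.485, adjusted p = 0.646).

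Among the 723 2-cell-only intergenic regions, 390 (53.9%) had another such region within 10 kb. In the sets of the other stages, this held for 18 of 240 GV-only regions (7.5%), 2 of 21 MII-only, 0 of 31 zygote-only, 4 of 90 8-cell-only and 2 of 33 blastocyst-only regions; sets of so few regions have fewer chances of a near neighbour. The median distance to the nearest one was 4.68 kb in the 2-cell set and 3700 kb in the GV set. Between neighbours no more than 10 kb apart the median gap was 1020 bp, and 159 of 702 neighbouring pairs were 500 to 2000 bp apart. Intergenic regions that both 2-cell libraries shared with another stage had another of their kind within 10 kb in 23.7% of cases. The median 2-cell-only intergenic region lay 31.4 kb from the nearest protein-coding gene, and 11.9% lay within 5 kb of one.

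**Figure D2:**
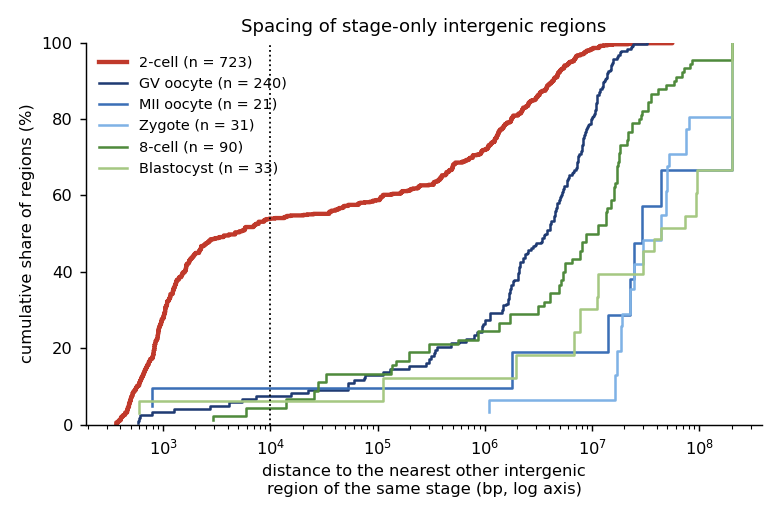
Cumulative share of stage-only intergenic regions by the distance from each region's midpoint to the nearest other one of the same stage (log axis, bp), with the number of regions per stage; the dotted line is at 10 kb, and regions alone on their chromosome are drawn at the right edge. The 2-cell curve passes 50% below 10 kb, where the GV curve is at 7.5%.

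Chaining regions no more than 50 kb apart put 666 of the 1250 2-cell-only regions (53.3%) into groups of 2 or more, against 19.4% of GV-only, 20.6% of 8-cell-only and 27.6% of blastocyst-only regions. There were 12 groups of 5 or more regions in the 2-cell set, and none, 2 and 3 in those 3 sets. The group with the most regions, 10, spanned 32.5 kb at chr6:89171910-89204424 (mm10). All 10 were intergenic, 112 kb from Plxna1, a semaphorin co-receptor, and the authors' fold of the peaks ran from 3.65 to 23.1 in replicate 1 and from 2.42 to 10.7 in replicate 2. Other groups fell among repeated gene families. One with 7 regions at chr17:35377106-35443745 covered H2-Q4, H2-Q6 and H2-Q7, genes of major histocompatibility complex class I. One with 5 at chr4:101899569-101947307 covered Pramel18 and Pramel19 of the PRAME-like family. On the Y chromosome 6 regions lay within 5.04 kb of each other in the pseudogene Vmn2r-ps139, and on the X chromosome 5 intergenic regions lay within 5.68 kb, 185 kb from a protein-coding gene. Reads from near-identical copies may be placed on the wrong copy, and which copy carries a peak is uncertain in such places.

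Of the 6 intergenic regions with the highest mean percentile, the first lay in the group of 10 above, at chr6:89204144-89204424, with a fold of 15.6 in replicate 1 and 7.8 in replicate 2. One at chr10:29930797-29931232, 265 kb from Cenpw, had 9.67 and 11.2. One at chr7:11025536-11025898, 15 kb from Zscan4c, had a fold of 43.6 in replicate 1 and 25.6 in replicate 2. Zscan4c, a zinc finger gene transcribed in the 2-cell embryo, had no peak of its own in any list. Regions at chr14:102639631-102639918 (32.5 and 18.7, nearest gene Kctd12 at 337 kb) and chr1:50370326-50371319 (31.6 and 29.2, nearest gene Tmeff2 at 529 kb) lay far from coding genes. A region at chr17:35385829-35386146, 1.15 kb from H2-Q4, had a fold of 13.9 and 23.6. Peaks of 20-fold or more numbered 289 in 2-cell replicate 1 and 163 in replicate 2, and 66.8% and 53.4% of them were intergenic. Of the 289 in replicate 1, 25.6% lay in 2-cell-only regions, against 13.8% of all its peaks; of the 163 in replicate 2 it was 15.3%, against 13.5%.

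**Figure D3:**
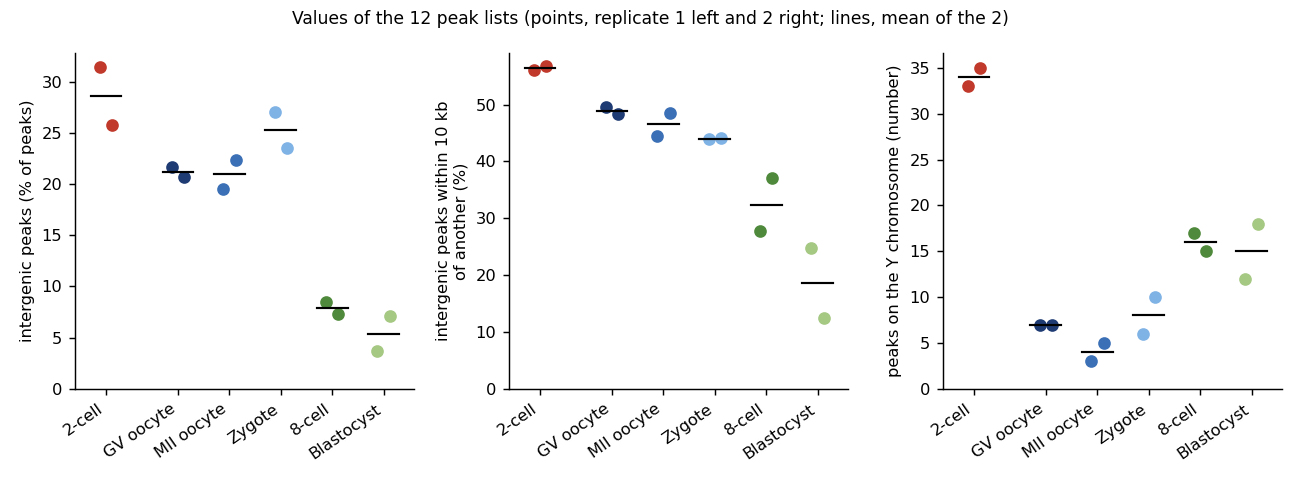
Intergenic share of peaks, share of intergenic peaks within 10 kb of another, and number of Y chromosome peaks in each of the 12 lists; points are the replicates and lines their mean. The 2-cell points are above every other point in the middle and right panels, and in the left panel 2-cell replicate 2 lies below zygote replicate 1.

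The Y chromosome carried 33 and 35 peaks in the 2-cell libraries, against 3 to 18 in the others. The GV and MII libraries, from oocytes that carry no Y chromosome, listed 3 to 7 there. The 2-cell mean of 34.0 ± 1.41 (SD, n = 2) exceeded the mean of the other 10, whose SD was 5.27, by 24 peaks (n = 2 and 10; exact two-sided permutation p = 0.0152, the smallest the design gives; adjusted p = 0.0606 over the 4 added measures). With only peaks with a score of 202 or more, the difference was 7.9 peaks, with the same p. With adjustment over 4 measures, 1 measure alone cannot reach an adjusted p below 0.05 in this design. The test treats the 2 replicates of a stage as independent, so its p may be too small. Of the protein-coding Y genes, 2 were 2-cell-only. Eif2s3y, which encodes a subunit of translation initiation factor eIF2, had a fold of 8.21 and 5.85. Usp9y, which encodes a deubiquitinase, had 14.0 and 9.65. Ddx3y, an RNA helicase gene of the same chromosome, had its single peak in blastocyst replicate 2.

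Of the 129 2-cell-only genes, 110 held a region that both 2-cell libraries shared, and in the other 19 the replicates marked different places in the gene. In 76 genes each replicate had 1 peak. A further 194 protein-coding genes held a 2-cell-only region but carried a peak elsewhere in their body in another stage. Just outside the rule, 84 genes were in both 2-cell lists and 1 other. The median length was 22302 bp for 2-cell-only genes, 40283 bp for 2-cell-absent genes and 28665 bp for all genes with a peak.

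The 2-cell-only genes are given by the rank of their peaks, leaving out 3 gene models without a symbol of their own that ranked among them (B020004C17Rik, 3830403N18Rik and LOC115487996). Pld5, a phospholipase D family member, had a fold of 43.1 in replicate 1 and 21.8 in replicate 2 and the highest mean percentile (98.8, where 100 is the strongest peak of a list by q). Its peak at chr1:175978436-175978824 was inside the gene, 16329 bp from its 3′ end. Trmt11, a tRNA methyltransferase gene, had 35.3 and 18.4, with 4 and 3 peaks in its body. Skint6, of a family that shapes epidermal T cells, had 34.5 and 14.6, with 11 and 4 peaks over a gene of 482358 bp. All 3 genes were at or above the 92.1 percentile on average over both replicates. Whether peaks inside these gene bodies lie in the RNA of the gene cannot be told here, and the same holds for the genes that follow.

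Of the next named genes in rank, Ulk4, an Unc-51-like pseudokinase gene, had a fold of 17.5 and 11.7, and Spdye4b, of the Speedy family of cyclin-dependent kinase activators, had 24.9 and 16.6. Baat, which encodes the enzyme that conjugates bile acids to amino acids, had 24.6 and 18.2. Git2, whose product acts on Arf GTPases, had 16.1 and 14.8, in a peak 693 bp from its 5′ end. Cd84, a SLAM family receptor gene, had 19.7 and 18.7 with 4 peaks in each replicate. These peaks lay inside the gene and, Git2 apart, more than 2 kb from either end.

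The list of high ranks was continued by Ccdc137, a coiled-coil protein gene, with a fold of 9.86 in replicate 1 and 13.1 in replicate 2, by Glt6d1, a glycosyltransferase gene (12.4 and 14.7), by Pon3, which encodes a paraoxonase (13.1 and 19.7), and by Fam43b (7.49 and 16.0). Rfpl4b, a ret finger protein-like gene, had 15.3 and 10.1, and Tnfrsf22, a decoy receptor gene for a death ligand, 14.8 and 13.0. Gtpbp1, a GTPase gene, had 14.8 and 9.49. Usp17ld, one of a family of deubiquitinases, had 15 and 7.69, in a peak 374 bp from the 3′ end of this gene of 2420 bp.

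The place of the best peak was counted for genes over 10 kb. Of 71 2-cell-only genes of that length with a known strand, 7 (9.86%) had their best peak within 2 kb of the 3′ end, and 62 (87.3%) more than 2 kb from both ends. Of 236 such 2-cell-absent genes, 82 (34.7%) had the best peak of the other libraries within 2 kb of the 3′ end. Of 938 genes marked in both 2-cell libraries and in 8 or more others, 220 (23.5%) had their best 2-cell peak there. The best peak was chosen from 10 lists for the 2-cell-absent genes and from 2 lists for the other sets, so the shares are not like for like. The difference between these sets of genes was not tested. Over whole lists, 21.1% ± 1.8 of the 2-cell peaks and 24.6% ± 6.61 of the others in such genes lay within 2 kb of the 3′ end (SD, n = 2 and 10; exact permutation p = 0.485, adjusted p = 0.646).

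**Figure D4:**
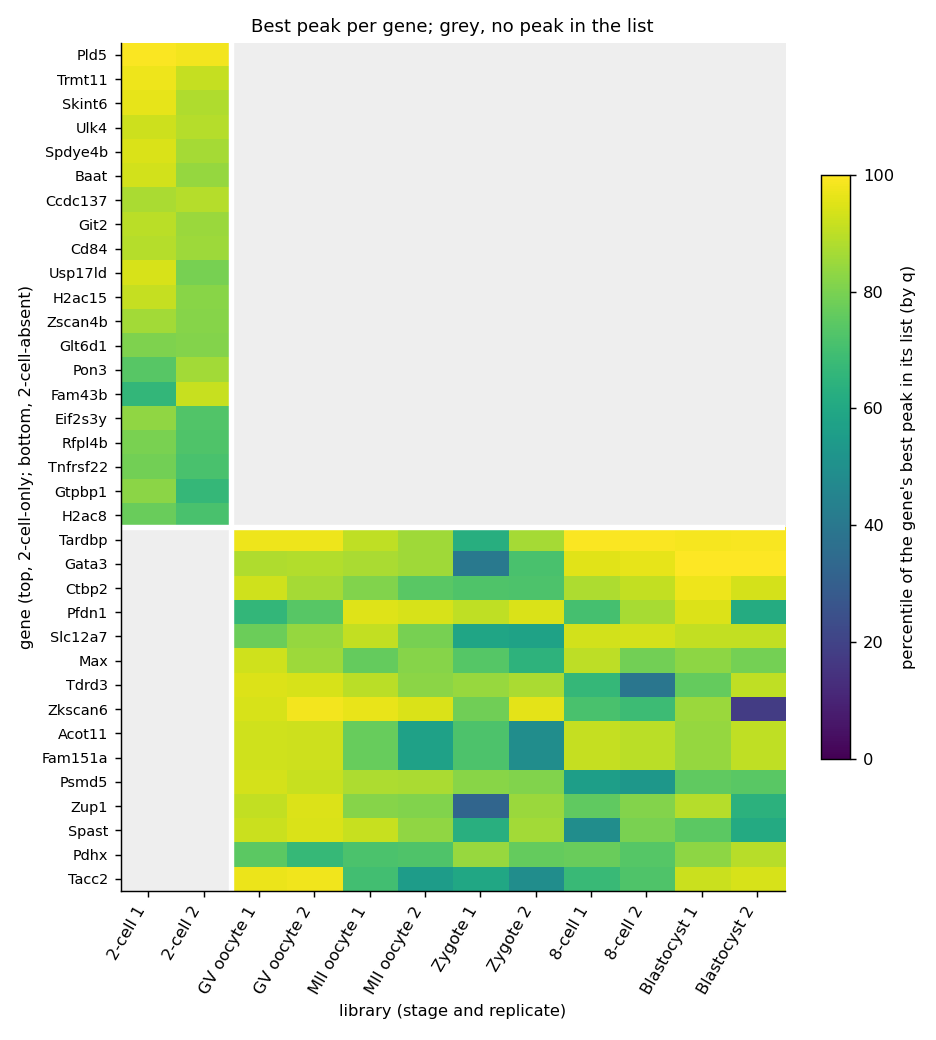
Percentile of the best peak (100, strongest by q) of 20 2-cell-only and 15 2-cell-absent genes in each library; rows are genes, columns libraries, and grey means no peak in the list. The 2 blocks without grey follow from the rule, and the 20 2-cell-only genes were taken for their high percentiles in both 2-cell lists (74.1 to 98.8 on average).

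Among 2-cell-absent genes, 84 had a peak in all 10 other libraries, 106 in 9 and 139 in 8; just outside the rule, 205 genes were in 7. All 6 oocyte and zygote libraries marked 207 of the 329, and all 4 8-cell and blastocyst libraries marked 183. Tardbp, which encodes the RNA-binding protein TDP-43, had no peak in either 2-cell list, while its best peaks in the other 10 had folds of 3.06 at the lowest, 7.07 at the median and 9.81 at the highest. Gata3, a transcription factor gene of the trophectoderm, had no 2-cell peak, and in the others 4.37, 9.48 and 15.2. Its peak in blastocyst replicate 1 lay 1255 bp from the 3′ end. Max, which encodes the partner of Myc proteins, had no 2-cell peak, and in the others 3.59, 5.39 and 11.5, while Myc itself had peaks in both 2-cell lists (13.4 and 7.1).

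None of the next genes had a 2-cell peak, and the lowest, median and highest folds in the other 10 lists were 3.62, 5.94 and 19 for Ctbp2, a transcriptional corepressor gene, and 4.07, 5.65 and 15.9 for Tdrd3, a Tudor domain gene. For Zkscan6, a zinc finger gene, they were 4.36, 7.28 and 20.6. Psmd5, an assembly factor of the proteasome, had 5.57, 6.13 and 9.6, and Zup1, a ubiquitin peptidase gene, had 2.72, 7.19 and 19.1. Pfdn1, a subunit of the chaperone prefoldin, had 3.66, 6.09 and 18.1.

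Slc12a7, a potassium chloride cotransporter gene, had folds of 5.76, 8.04 and 13.9 in the others, Spast, whose product severs microtubules, 3.11, 4.45 and 10.2, and Tacc2, a centrosomal coiled-coil gene, 2.15, 5.23 and 13.2. Pdhx, a component of pyruvate dehydrogenase, had 1.87, 5.13 and 11.1. Acot11, an acyl-CoA thioesterase gene, and Fam151a overlap on opposite strands and were called from the same peaks, with 4.01, 6.04 and 11.8; which of the 2 carries the mark cannot be told apart. In all 15 genes named here the other 10 lists each held a peak, as the choice of genes by number of lists set.

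Gene families in clusters were defined as 3 or more protein-coding genes with the same symbol stem, with gaps of at most 200 kb. There were 399 such clusters with 3417 genes, 15.6% of protein-coding genes, and 4.79% of the genes with a peak in any list. Of the 2-cell-only genes, 18 of 129 (14.0%) were in a cluster, and of the 2-cell-absent genes, 17 of 329 (5.17%). The same rule gave 8.65% of GV-only, 4.35% of 8-cell-only and 5.88% of blastocyst-only genes, 0 of 24 MII-only genes and 1 of 13 zygote-only genes. Over all genes marked in a library, the share was 4.69% ± 0.374 in the 2-cell libraries and 4.41% ± 0.703 in the others (SD, n = 2 and 10; exact two-sided permutation p = 0.636, adjusted p = 0.636).

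Histone genes made the single run of 3 or more 2-cell-only neighbours within 500 kb. The run spanned chr13:21722044-22035643 and held H2bc14, with folds of 5.92 and 6.66, H2ac15 with 11.3 and 5.99, H2ac24 with 6.54 and 6.57 and H2ac12 with 3.66 and 3.21. Further along the chromosome, H2ac8 had 13.2 and 13.0. These are replication-dependent genes for histone H2A and H2B, short and without introns, whose copies are nearly identical, so the copy that carries each peak is uncertain. In the cluster of 17 histone genes that opens the run, 4 and 5 had a peak in the 2-cell libraries, against 0 to 2 in the others; 3 of them are 2-cell-only members, so the rule sets most of this contrast. The start-site windows of H2bc14 and H2ac24 printed above are the ones their regions reached into. Of a separate list of 29 histone genes, which includes linker histones and H2ac8 but none of the 4 genes of the run, 5 and 7 had a peak in the 2-cell libraries, against 2 to 7 in the others.

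The other clustered 2-cell-only genes were single members of their cluster. Zscan4b, of the cluster whose products mark the 2-cell stage and act on telomeres, had folds of 13.5 and 10.1 and no peak elsewhere. Zscan4d had 4.45 and 3.79 in the 2-cell libraries and 2.39 to 4.88 in 5 others. Where copies of this cluster are near-identical, which one carries a peak is uncertain. In the span of the 4 Zscan4 genes of the table with 50 kb on each side (chr7:10850740-11452318), the 2-cell libraries listed 14 and 7 peaks, against 0 to 5 in the others, and 5 of the 16 regions there were 2-cell-only. Aox2, an aldehyde oxidase gene, had 13.1 and 12.6, Scd3, a stearoyl-CoA desaturase gene, 10.9 and 9.01 in a peak that also lies in Pkd2l1, which overlaps it, and Apol7e, of the apolipoprotein L family, 6.88 and 5.73. Gtf2i, a general transcription factor gene, had 8.73 and 6.68. Pramel18 had 5.66 and 5.57, and the zinc finger genes Zfp647 and Zfp30 had 3.49 and 7.17, and 6.98 and 5.57. The weakest was Ttc30a1, an intraflagellar transport gene, with 3.49 and 4.45 and a mean percentile of 3.48.

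Zfp genes encode zinc finger proteins, many of them repressors of transcription. Genes with the stem Zfp made up 15 of the 329 2-cell-absent genes (4.56%) and 3 of the 2-cell-only genes, against 3.15% of the genes with a peak (312). Zfp109 and Zfp111 on chromosome 7 are neighbours in a cluster of 12 Zfp genes, of which 2 had a peak in each 2-cell library and 2 to 6 in each of the others. Zfp109 had no 2-cell peak and folds of 3.08, 5.52 and 8.7 (lowest, median, highest) in the other 10 lists; Zfp111 was marked in 9, with 3.81, 6.52 and 10.4. Zfp708 on chromosome 13 was marked in all 10 others (3.19, 6.53 and 18.4), and its cluster of 23 genes had 6 and 4 with a peak in the 2-cell libraries, against 3 to 17 in the others. The Zfp cluster of 12 genes at chr4:146449030-147849126 had 10 and 10 marked in the 2-cell libraries and 6 to 12 in the others, although Zfp933 was 2-cell-absent there. Further Zfp clusters went either way. The 2-cell libraries marked 8 and 7 of 12 genes on chromosome 17, against 7 to 10, and 3 and 3 of 3 on chromosome 15, against 0 to 2. On chromosome 18 they marked 0 and 0 of 3, against 1 to 3, and at chr7:7114683-7209998 0 and 0 of 4, against 1 to 3. Each of the Zfp clusters given here holds a 2-cell-only or 2-cell-absent gene, and its counts include that gene. The rule thus sets part of these contrasts.

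Families known for transcription around the 2-cell stage split by member in the lists. Where copies are near-identical, which copy carries a peak is uncertain. This applies to the Zscan4, Obox, Tdpoz, Trim43, PRAME-like and Usp17l genes named above and below. Beside the counts of each gene list stand all marked protein-coding genes, 3692 and 4020 in the 2-cell libraries and 3025 to 5237 in the others. Of all genes with a peak, 1.3% were 2-cell-only and 3.32% were 2-cell-absent. Obox genes encode homeobox proteins of the oocyte and early embryo. Obox3 was 2-cell-only, with folds of 6.19 and 5.27. Obox1 and Obox5 were marked in both 2-cell libraries (11.1 and 5.92; 7.69 and 3.3) and in the 6 oocyte and zygote libraries but in no later one. Obox6 was marked in the 2-cell libraries (4.45 and 5.69), in both 8-cell libraries and in blastocyst replicate 1. Obox2 and Obox7 had peaks in the 6 oocyte and zygote libraries and in no other.

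Tdpoz and Trim43 genes, multicopy families of the cleavage stages, had no peak in any oocyte or zygote library in the 5 and 3 members listed. Tdpoz8, a member outside the list that was looked up after its values were seen, was 2-cell-only, with folds of 8.66 and 2.8. Tdpoz1, Tdpoz2 and Tdpoz4 were marked in both 2-cell libraries, with folds of 16.6 and 5.74 for Tdpoz1, 6.98 and 3.81 for Tdpoz2 and 12.6 and 5.18 for Tdpoz4, and Tdpoz1 and Tdpoz2 also in all 4 later libraries. Trim43a had 5.74 and 7.24 and Trim43c had 4.59 and 6.41 in the 2-cell libraries; Trim43b had none there and 4.28 to 6.86 later. In the PRAME-like family, 13 and 9 of 27 genes were marked in the 2-cell libraries, against 6 to 11 in the others, and Pramel29 was 2-cell-absent. Pramel6, a gene of the inner cell mass, had 5.88 and 12.5 in the 2-cell libraries, none in the oocytes and zygotes and 8.68 to 14.0 later.

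Of 24 genes of a list of 2-cell transcripts, 17 and 13 had a peak in the 2-cell libraries, against 5 to 13 in the others. Usp17ld and Spz1, a basic helix-loop-helix zipper gene (4.96 and 3.55), were 2-cell-only. Usp17lb, which adjoins further copies of its family, had 18.0 and 14.8 in the 2-cell libraries and 19.4 and 5.88 in the 8-cell libraries, and no peak in the others. Zfp352 had 5.76 and 3.19 and 1 peak elsewhere, in 8-cell replicate 2. Smarca5, a chromatin remodeller gene, had 5.33 and 5.55 and was marked in 7 other libraries. Nr5a2, a nuclear receptor gene of genome activation, had 9.08 and 18.2 in the 2-cell libraries and 7.56 to 31.1 in all 10 others.

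Oocyte genes carried few 2-cell peaks. Of 25 on the list, 4 and 1 had a peak in the 2-cell libraries, against 12 to 16 in the oocyte and zygote libraries, while the 8-cell and blastocyst libraries had 0 to 5. Nlrp5, a maternal effect gene of the subcortical complex, was the one marked in both 2-cell libraries, with folds of 15.7 and 8.91, against 4.6 to 23.8 in the oocyte and zygote libraries and no peak later. Nlrp14, another of the Nlrp family, had no 2-cell peak and 2.3 to 11.7 in those 6 libraries. Of 24 genes of maternal RNA decay, 7 and 8 were marked in the 2-cell libraries, against 10 to 15 in each other library. Over all protein-coding genes it was 3692 and 4020, against 3025 to 5237, and no test was made of this list. Pan3, a subunit of a deadenylase, Dcp1a and Dcp2, the subunits of the decapping enzyme, were 2-cell-absent. They are 3 of the 22 list genes with a peak, against 3.32% of all genes with a peak. Dcp1a had 2.93 to 6.77 in all 10 others. Cnot7, a deadenylase of the CCR4-NOT complex, kept peaks in the 2-cell libraries (8.29 and 5.94), and so did Ythdf2, an m6A reader gene (7.5 and 12.4).

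The machinery of m6A itself was marked within the range of the other stages, with a peak in 12 and 11 of 19 writer, reader and eraser genes at the 2-cell stage and in 10 to 14 elsewhere. Wtap, a writer subunit, had 6.13 and 4.43 in the 2-cell libraries and 2.37 to 24 in the others. Cbll1, another writer subunit, had 5.62 and 7.39, no peak in oocytes and zygotes, and 6.88 to 15.7 later. RNA polymerase II and elongation genes had a 2-cell peak in 16 and 20 of 30 cases, against 8 to 19 in the others, and Ell, an elongation factor gene, was 2-cell-only. Of 36 genes of ribosome biogenesis it was 15 and 19, against 9 to 26. Of 33 splicing factor genes it was 12 and 13, against 7 to 16, and Sf3b1 was 2-cell-absent. Of 31 proteasome genes it was 7 and 8, against 2 to 13, and of 23 stress response genes 12 and 12, against 4 to 16.

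Of 19 pluripotency genes, 11 and 11 had a peak in the 2-cell libraries, against 5 to 16 in the others. Klf5, Zfp42 and Fgf4 were marked in both 2-cell libraries (4.95 and 11.8; 5.72 and 4.45; 6.82 and 10.4) and in no oocyte or zygote library. Sox2 was 2-cell-absent, with 4.01 to 23.9 in the 8 other libraries that listed it. The trophectoderm list had a 2-cell peak in 4 and 4 of 19 cases, against 4 to 13 in the others, with Gata3 and Dab2 2-cell-absent. Of 27 genes of growth factor and MAPK feedback, 10 and 8 were marked, against 4 to 18; Ier5 was 2-cell-only (5.23 and 6.2), and Jun, an immediate early transcription factor gene, was 2-cell-absent. The primitive endoderm list of 5 had 1 and 1 with a 2-cell peak, against 0 to 3 in the others.

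The 2 replicates of the 2-cell stage differed from each other. They shared 5496 regions, while 3012 were in replicate 1 and not 2, and 3383 in replicate 2 and not 1, so 46.2% of the regions of either were in both. The share was 73.4% for GV, 62.3% for MII, 53.7% for zygote, 52.3% for 8-cell and 41.9% for blastocyst pairs. By genes, 2817 were marked in both 2-cell replicates, 875 in replicate 1 alone and 1203 in replicate 2 alone (57.5% in both). Identical intervals made up 1.93% of the smaller 2-cell list, so the lists are not copies of one another. Regions in 1 replicate were weak: their median percentile was 26.7 in replicate 1 and 32.2 in replicate 2, against 63.9 and 61.5 for shared regions.

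The regions of a single replicate were of different kinds. Of those in replicate 1 and not 2, 33.2% were intergenic and 54.4% were in no other library. Of those in replicate 2 and not 1, 17.1% were intergenic and 36.4% were in no other library. The 8-cell libraries held 15.2% and 17.0% of the regions of replicate 1 alone, and 34.5% and 37.7% of those of replicate 2 alone; GV libraries held 22.8% and 23.2% and, for replicate 2, 25.8% and 29.2%. The collection window of 39 to 43 h was the same in the labels for both pools, and the part of timing within it was not tested.

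**Figure D5:**
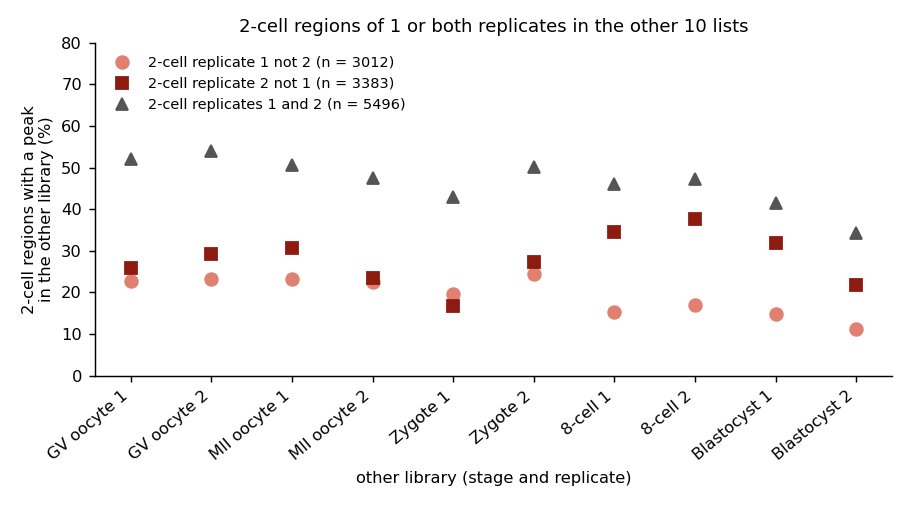
Share of 2-cell regions with a peak in each of the other 10 lists, for regions of replicate 1 alone, replicate 2 alone and both replicates. Regions of replicate 2 alone lie above those of replicate 1 alone in all lists but zygote replicate 1, and the gap is widest in the 8-cell libraries (37.7% and 17.0% in 8-cell replicate 2).

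Strong genes of replicate 1 alone were Cct6b, a chaperonin gene, with a fold of 14.4, Trub2, a pseudouridine synthase gene, with 13.7, Trim7, a ubiquitin ligase gene, with 10.7, and Rictor, a subunit of the kinase complex mTORC2, with 9.95. Rictor was marked in all 10 other libraries (5.86, 12.9 and 26.6 at the lowest, median and highest) and lacked a peak in 2-cell replicate 2. Of replicate 2 alone they included 2 genes of ribosomal proteins, Rpl34 with 11.1 and Rpsa with 5.79, and Rad1, of the DNA damage checkpoint clamp, with 12.8. The best peaks of Cct6b, Trim7 and Rad1 had their midpoints outside the gene, 530, 31 and 122 bp from its nearest end. They only reach into the gene, so whether the mark belongs to these genes is uncertain. Rpl34 was also marked in both 8-cell libraries (4.47 and 4.54). Presence in both replicates was asked of every 2-cell-only member, and the sets grew without that demand: asked of replicate 2 alone, 2542 regions and 267 genes were 2-cell-only, and asked of replicate 1 alone, 2926 regions and 270 genes.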

How the data were processed

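Peak lists of 12 immunoprecipitated libraries, deposited by the authors on mm10, were used. Per the submitters' processing notes, MACS2 2.1.2, HISAT2 2.1.0, cutadapt 1.8.1, bedtools 2.28.0, deepTools 3.2.0, FastQC 0.11.8 and SAMtools 1.9 were used; settings of the peak calls are not known here. Each deposited line has a score, a fold enrichment (ratio), a −log10 p and a −log10 q, all the authors' own values for that peak (the lowest −log10 q is 1.3), used here only within a list. Lines with the same interval were joined (143579 summits, 113764 peaks, 9 of them mitochondrial and left out). Genes came from the RefSeq table of GRCm38.p6 (21887 protein-coding; no exons; strand for 79.9%, from the RefSeq start-site windows); a gene is marked by a peak over 1 bp of its body, and a peak's class is that of its midpoint. A percentile is a peak's rank by q in its list. Python 3.11.15, pandas 2.3.3, numpy 2.4.6 and matplotlib 3.10.9 were used, and the interval and permutation code was tested on simulated data and against bedtools 2.31.1.

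Of 13 results, 4 are counts; per-library values were tested by exact permutation (two-sided, all choices of 2 libraries), with Benjamini-Hochberg adjustment over 5 measures and over 4 added after seeing the data. The members and gene lists were chosen with earlier results of these data known. Named genes are the 20 2-cell-only genes with the highest mean percentile among those with a symbol of their own (Gm, Rik and LOC models are counted, and named in clusters and runs or where stated), the 15 2-cell-absent genes by number of libraries and percentile, up to 4 of each list, those in family clusters or runs (some Zfp and Slc genes counted only), 4 per single replicate (1 of them is not reported here) and 6 intergenic regions; some list members were named beyond this after their values were seen. Replicates are pools, and the spread between them may be partly technical. Same-numbered replicates showed no clear joint deviation (correlations between stages from -0.168 to 0.0458), and the libraries were treated as unpaired. A batch shared between libraries was not tested.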

Additional observations from a re-analysis of the deposited data

How the results depend on the processing

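With 6914 peaks per list the counts were 984 and 277 regions and 145 and 265 genes (2-cell-only first, 2-cell-absent after). With the other gene and overlap rules the counts were within 1.5 times of those reported. Peaks with a score of 202 or more left 493 and 208 regions and 69 and 195 genes. The median −log10 q was 12.43 and 15.32 in the 2-cell lists and 10.68 to 33.28 in the others. A common cutoff can therefore keep unequal shares of the lists, and this may set part of the values under it. A fold at or above the list's median, chosen after seeing the data, left 730 and 104 regions and 119 and 155 genes. Asking for all 10 others gave 79 2-cell-absent regions and 84 genes. Leaving out 1 library gave 1251 to 2926 2-cell-only regions, 200 to 680 2-cell-absent regions, 129 to 270 2-cell-only genes and 195 to 590 2-cell-absent genes. The highest values come from leaving out a 2-cell library, which asks less of the rest: without 2-cell replicate 2, 680 regions and 590 genes were absent. The lowest 2-cell-absent counts come from asking 8 of 9 others: without GV oocyte replicate 1 or 2, 203 and 200 regions, without MII oocyte replicate 1 or 2, 206 and 221, without zygote replicate 2, 228, and without blastocyst replicate 1, 212.

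No per-library measure passed an adjusted p of 0.05 under any setting. With all 12 libraries the smallest possible exact p was 0.0152, so 1 measure alone could not pass after adjustment. With a 2-cell library left out it was 0.0909, so no measure could pass. These failures therefore do not show that a difference is absent. With 1 library left out, the difference (2-cell minus others) was 9.68 to 15.3 points for the intergenic share, 0.0177 to 0.547 points for clustered genes, -34.3 to -21.2 bp for width, 0.399 to 0.643 for fold, -4.62 to -2.33 points for gene ends, 15.5 to 19.6 points for close intergenic peaks, 23 to 25 for Y chromosome peaks, and -0.252 to 0.188 points for the 5′ end, whose sign turned in 3 of 12 (all p from 0.836 to 1.0); the cause was not tested. With the replicate block (36 choices, smallest p 0.0278) the exact p was 0.111 for the intergenic share, 0.0833 for close intergenic peaks and 0.0278 for Y chromosome peaks. No adjusted p was below 0.05 there, which 1 measure alone could not reach. Read depth is unknown, and the lists' own threshold limits every absence.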
